A study of Aspergillus nidulans and Aspergillus wentii with 48 samples.

Results

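The 6 libraries described here are the NaCl-treated cultures of *Aspergillus wentii*, 3 of the strain ′c *gfdB* and 3 of its reference strain CBS141173, taken by their sample titles out of 24 *A. wentii* libraries and 48 in the whole series. CBS141173 is a wild-type strain whose genome holds *gfdA* and lacks *gfdB*. ′c *gfdB* is CBS141173 carrying *gfdB* of *A. nidulans* with its own promoter and terminator, together with a hygromycin resistance marker. It is a single transformed strain, so an effect of the *gfdB* product and any other change that came with the transformation cannot be told apart. Both strains were grown for 65 h in submerged culture in minimal medium, and the washed mycelium was then moved for 0.5 h to fresh medium with 1 M NaCl. The other groups used for reference were treated alike in both strains: fresh medium alone (untreated), 2 M sorbitol, or 1 M NaCl with 2 M sorbitol. Each group has 3 replicates, which the study calls biological. The deposited table has 12659 *A. wentii* genes, 224 of them transfer RNA genes. The reads of the introduced *gfdB* are not part of that table and were not analysed here.

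When water becomes scarce outside the hypha, filamentous fungi accumulate polyols, and glycerol is the main one made quickly. Glycerol 3-phosphate dehydrogenases, the enzymes encoded by *gfdA* and *gfdB*, convert dihydroxyacetone phosphate to glycerol 3-phosphate, and a phosphatase then releases glycerol. The osmotic signal passes through a phosphorelay of histidine kinases and response regulators to the HOG (high osmolarity glycerol) mitogen-activated protein kinase cascade, which acts on transcription factors such as AtfA. High salt is both an osmotic and an ionic stress, and osmotically stressed cultures often raise antioxidative enzymes. The comparison addresses how the presence of *gfdB* alters the transcriptome of a salt-treated osmophilic fungus that has lost this gene. The roles given below to *A. wentii* genes are those of the *A. nidulans* orthologues named by the study. The files pair no other *A. wentii* ID with a name.

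Total counts of the NaCl libraries were 19381638, 15159623 and 17809654 reads in ′c *gfdB* and 17279683, 26828279 and 19871540 reads in CBS141173, within the range of the 24 *A. wentii* libraries (11758085 to 32274107). The γ-actin gene (ASPWEDRAFT_168397), set beforehand as a mycelium marker, had 762, 1174 and 1028 RPKM in ′c *gfdB* and 1066, 918 and 921 RPKM in CBS141173. RPKM are reads scaled to gene length and library total. The other gene set as a mycelium marker, chitin synthase ASPWEDRAFT_189665, did differ between the strains. It was higher in ′c *gfdB* by 1.12 (log2), and by 0.54 without ′c *gfdB* replicate 1. The orthologue of *catA*, the catalase gene of conidia (ASPWEDRAFT_48635), was at 0.595 to 0.791 RPKM in ′c *gfdB* and 0.899 to 1.21 RPKM in CBS141173. Both strains thus had high γ-actin and low *catA* levels. In bulk RNA of mycelium, fewer cells of a kind and less RNA per cell cannot be told apart.

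Before any comparison, 1 library has to be set apart. ′c *gfdB* NaCl replicate 1 correlated with replicates 2 and 3 of its group at r = 0.894 and 0.927 (log2 CPM over 11094 genes), whereas replicates 2 and 3 correlated at 0.975 and the CBS141173 NaCl libraries at 0.965 to 0.992. Its closest library among the other 23 was CBS141173 sorbitol replicate 2 (r = 0.940). The study itself reports less similar replicates for ′c *gfdB* under NaCl and for CBS141173 under sorbitol. In replicate 1, 1658 genes lay over 2-fold above and 1818 over 2-fold below the mean of the other 2 libraries of its group. The replicate numbers carry no order, and the corresponding counts were 1183 and 1095 for replicate 2, 418 and 639 for replicate 3, and 69 to 568 and 91 to 636 in CBS141173.

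**Figure D1:**
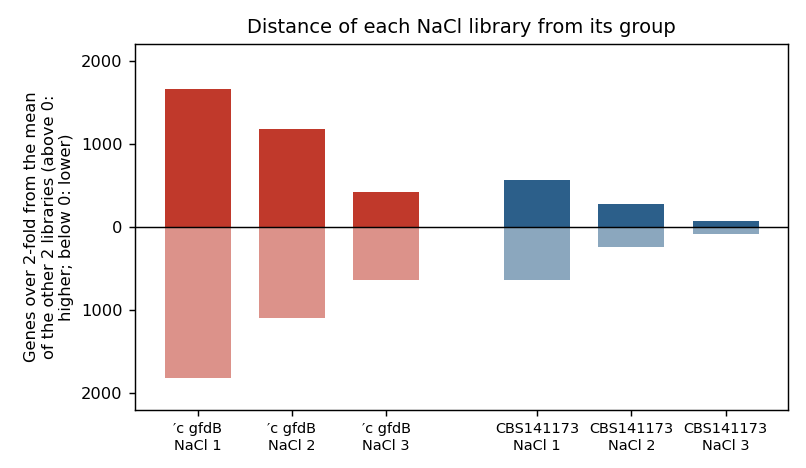
Number of genes (y axis) whose level in 1 NaCl library (x axis) lies over 2-fold above (upward bars) or below (downward bars) the mean of the other 2 libraries of the same strain, on the log2 CPM scale. ′c *gfdB* replicate 1 has 1658 genes above and 1818 below, more than each of the other 5 libraries.

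The strain label of this library was compared with genes set from the 18 *A. wentii* libraries outside the NaCl treatment. Of 14 genes at least 4-fold lower in each ′c *gfdB* library than in each CBS141173 library there, replicates 2 and 3 of ′c *gfdB* NaCl were nearer the ′c *gfdB* level for all 14, and replicate 1 for 5. CBS141173 NaCl replicates 1, 2 and 3 were nearer the ′c *gfdB* level for 6, 1 and 0 of these genes. ASPWEDRAFT_73422, read 18 times or more in each of the 9 CBS141173 libraries outside NaCl, had 1 read in ′c *gfdB* NaCl replicate 1, against 38, 49 and 39 in the CBS141173 NaCl libraries. Of 3 further genes with at most 3 reads in each ′c *gfdB* library outside NaCl, it had 0, 36 and 25 reads, where the CBS141173 NaCl libraries had 12 to 21, 9 to 35 and 15 to 102 reads. The library thus lacked 2 of these transcripts like the rest of ′c *gfdB*, while it held 2 others and stood near the CBS141173 level for 9 of the 14 genes. The size of the salt response was smaller in it as well. Over 989 genes raised more than 4-fold by NaCl in CBS141173, the median change against the untreated ′c *gfdB* cultures was 1.49 in replicate 1, 2.26 in replicate 2 and 2.1 in replicate 3 (log2). Over 381 genes lowered more than 4-fold in CBS141173 it was 0.09, −1.09 and −0.85. The cause was not tested, and results are given below with and without this library.

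Expression of *gfdB* went with 647 upregulated and 753 downregulated genes under NaCl among 11094 genes with enough reads to be tested. A change over 2-fold with a p under 0.05, adjusted by Benjamini–Hochberg over the genes tested, counted as upregulated or downregulated. The test was edgeR's quasi-likelihood test fitted to all 24 *A. wentii* libraries. These are 5.83% and 6.79% of the genes tested. At any fold, 1260 genes were higher and 1030 lower with an adjusted p under 0.05. Without ′c *gfdB* NaCl replicate 1 the counts were 476 up (4.25%) and 790 down (7.05%) of 11199 genes. Of the upregulated genes 332 (51.3%) and of the downregulated genes 561 (74.5%) kept their call without it, and none changed from up to down or the reverse. Among the 315 upregulated genes that lost the call, 14 had a negative difference without replicate 1.

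The fit to all 24 libraries shares 1 estimate of the spread, and this matters here. Fitted to the 6 NaCl libraries alone, the same test called 53 genes up and 141 down, of which 53 and 140 were also called by the fit to 24 libraries. With the same 6 libraries less ′c *gfdB* replicate 1, an alternative added after the data were seen, it called 240 up and 516 down. The median SD of a gene's log2 CPM was 0.478 among the ′c *gfdB* NaCl libraries and 0.268 among those of CBS141173, and it was 0.262 between ′c *gfdB* replicates 2 and 3.

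The differences were mostly moderate. The median absolute difference over all genes was 0.42 (log2), and 124 upregulated and 249 downregulated genes passed 4-fold. Of these, 52 and 177 passed 4-fold with and without replicate 1. RPKM values of the strains did not overlap for 469 of the 647 upregulated and 720 of the 753 downregulated genes, beside 11.2% (higher) and 16.2% (lower) of all genes tested. The calls rest on the same libraries, so the excess follows in part from the selection. Split by mean level into 4 equal groups, 17.5% of the genes were called in the lowest and 7.28% in the highest group. The values without replicate 1 were 15.2% and 7.35%. The 3 largest positive differences, 7.79, 6.59 and 5.18, rested on replicate 1 and were 1.16, −0.09 and 1.69 without it, none past the test.

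**Figure D2:**
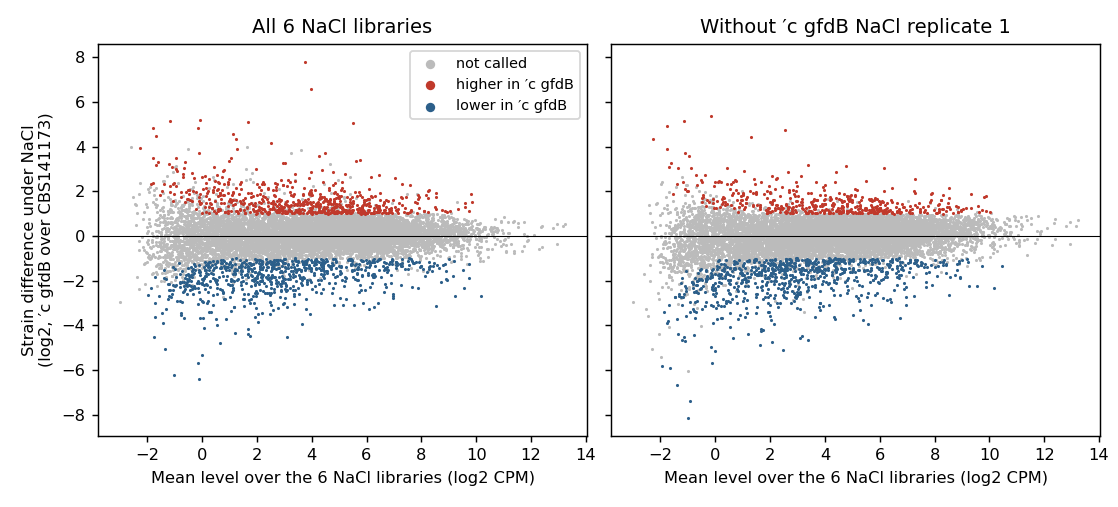
Strain difference under NaCl (y axis, log2 of ′c *gfdB* over CBS141173) against the mean level of each gene over the 6 NaCl libraries (x axis, log2 CPM), with all libraries (left) and without ′c *gfdB* NaCl replicate 1 (right). Colours mark the 647 upregulated and 753 downregulated genes on the left and the 476 and 790 on the right; low genes have the widest scatter.

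Among genes outside the study's lists, the largest differences that passed the test with and without replicate 1 and did not overlap were in 2 genes that were hardly read in ′c *gfdB* and in 2 that rose. ASPWEDRAFT_168648 had 0, 2 and 1 reads in ′c *gfdB*, against 51, 192 and 131 reads in CBS141173. Its share of reads in ′c *gfdB* was 0.00980 times that in CBS141173 (95% exact interval 0.00201 to 0.0289, counting error only; adjusted p = 1.75e-05, edgeR). ASPWEDRAFT_73422 had 1, 0 and 0 reads in ′c *gfdB*, against 38, 49 and 39 reads in CBS141173, a ratio of 0.00970 (0.000244 to 0.0550; adjusted p = 2.75e-05, edgeR). Both genes were also downregulated in ′c *gfdB* in the untreated, sorbitol and NaCl + sorbitol cultures. ASPWEDRAFT_54022 had 2842, 151 and 140 RPKM in ′c *gfdB*, against 25.6, 34.0 and 29.6 RPKM in CBS141173. It rose by 5.04 (SE 0.93, adjusted p = 0.00100, edgeR), and by 2.44 without replicate 1 (adjusted p = 0.00726), whose level was far above the other 2. ASPWEDRAFT_182691 was read 38, 49 and 5 times in ′c *gfdB*, against 0, 2 and 1 times in CBS141173, a ratio of read shares of 37.5 (12.4 to 185.1; adjusted p = 0.00223, edgeR).

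ASPWEDRAFT_168648 and ASPWEDRAFT_73422 belong to a small set with almost no reads in ′c *gfdB*. A total of 9 genes had 3 reads or fewer in each ′c *gfdB* NaCl library and more than 10 in each CBS141173 NaCl library, and 0 genes had the reverse pattern. Of the 9, 8 were downregulated and 1 had too few reads over all libraries to be tested. For 4 of them no ′c *gfdB* library in any of the 4 conditions had more than 3 reads. Among these, ASPWEDRAFT_73422 and ASPWEDRAFT_623875 had at least 18 and 12 reads in each CBS141173 library. ASPWEDRAFT_177937 and ASPWEDRAFT_33266 were hardly read in some CBS141173 cultures too. They had 0 to 1 and 0 reads untreated, and 1 to 5 and 0 to 2 reads under NaCl + sorbitol. The functions of the 9 genes are not given in the sources used here.

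The study lists *A. wentii* orthologues of genes for osmotic signalling, glycerol and trehalose turnover and antioxidative enzymes, and 12 genes measured by RT-qPCR, 117 genes in all, of which 106 had enough reads to be tested. Of these 106, 4 (3.77%) were upregulated and 8 (7.55%) downregulated under NaCl, beside 5.83% and 6.79% of all genes tested. The RT-qPCR genes gave 3 of the upregulated and 2 of the downregulated genes. Of the 95 other listed genes tested, 1 (1.05%) was upregulated and 6 (6.32%) downregulated. Without ′c *gfdB* replicate 1 it was 3 (3.09%) and 5 (5.15%) of 97, beside 4.25% and 7.05% of all genes tested. The median difference was 0.10 for the 106 listed genes and 0.07 for all genes. For all listed genes, leaving out ′c *gfdB* replicate 1 gave 5 up and 7 down of 108. Leaving out CBS141173 replicate 3 gave 1 up and 9 down, and leaving out CBS141173 replicate 1 gave 6 up and 5 down. The RPKM values of the strains did not overlap for 11 of the 12 genes called, which were selected on the same libraries. Of the 106 tested, 5 were higher and 17 lower without overlap, beside 11.2% and 16.2% of all genes tested. No list was tested as a set. The 11 members not tested had at most 24 reads in any NaCl library.

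**Figure D3:**
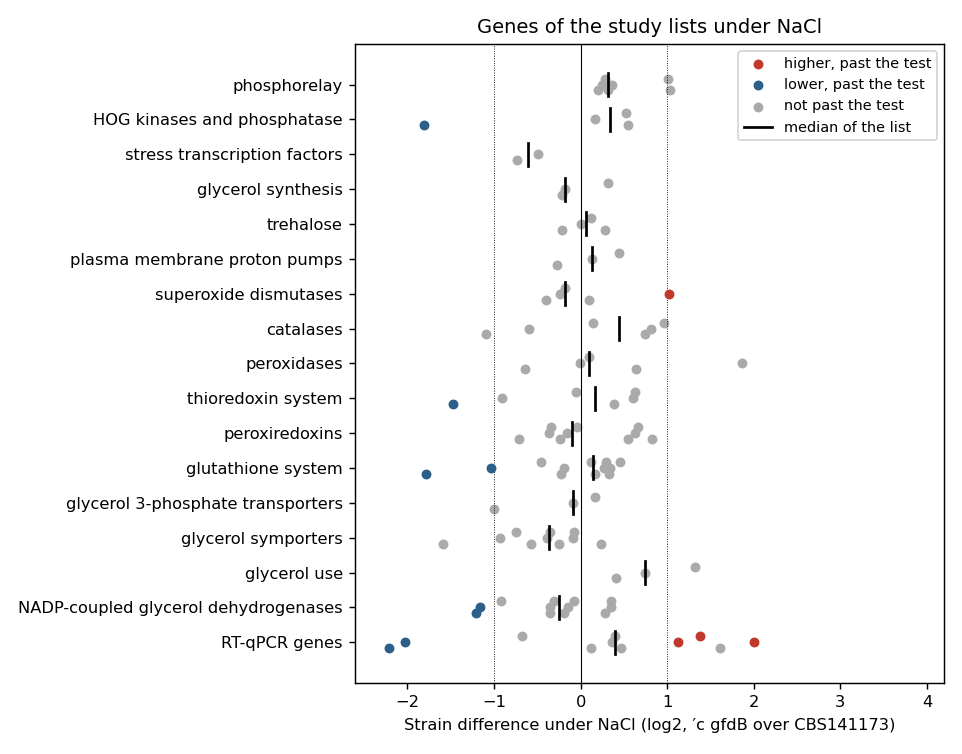
Strain difference under NaCl (x axis, log2 of ′c *gfdB* over CBS141173; dotted lines at 2-fold) of each listed gene tested, 1 line per list, with the list median as a black bar; vertical offsets only separate points. Most points lie within 2-fold, and the 4 upregulated and 8 downregulated genes come from 6 lists.

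Of the 13 genes of the phosphorelay, the HOG cascade and its transcription factors, 1 passed the test. It was downregulated, as were 6.79% of all genes tested. ASPWEDRAFT_41261, 1 of 2 orthologues of the mitogen-activated protein kinase gene *hogA*, had 13.6, 38.2 and 46.4 RPKM in ′c *gfdB*, against 118, 139 and 118 RPKM in CBS141173. The 3 ′c *gfdB* values were below the lowest CBS141173 value. The gene fell by 1.81 on the log2 scale (SE 0.36, adjusted p = 0.00158, edgeR), and by 1.40 without replicate 1 (adjusted p = 0.00180). It kept its call when any other NaCl library was left out, while the fit to the 6 NaCl libraries alone gave −1.83 with an adjusted p of 0.0894. The strain difference of this gene was −1.85 in untreated, −0.96 in sorbitol-treated and −1.70 in NaCl + sorbitol-treated cultures. The other *hogA* orthologue, ASPWEDRAFT_111477, had 159, 110 and 157 RPKM in ′c *gfdB* and 170, 100 and 127 RPKM in CBS141173 and a difference of 0.16 (adjusted p = 0.586). The 2 *hogA* orthologues thus differed in this respect, and the difference between them was not tested.

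The kinase gene *pbsA* (ASPWEDRAFT_51084), which acts above HogA in the cascade, had 36.4, 40.0 and 28.9 RPKM in ′c *gfdB* and 30.8, 22.1 and 23.2 RPKM in CBS141173, a difference of 0.53 (SE 0.20, adjusted p = 0.0608, edgeR). The 7 phosphorelay genes had differences between 0.20 and 1.03, none past the test. *ypdA* (ASPWEDRAFT_99233), whose product passes phosphate from the histidine kinases to the response regulators, had 166.8, 252.1 and 162.6 RPKM in ′c *gfdB* and 128.3, 190.3 and 183.2 RPKM in CBS141173 (0.28, adjusted p = 0.443). The largest was that of *srrA* (ASPWEDRAFT_202686), a response regulator gene, with 26.9, 7.87 and 12.2 RPKM in ′c *gfdB*, against 14.2, 4.50 and 4.57 RPKM in CBS141173 (1.03, SE 0.40, adjusted p = 0.0739, edgeR). Without replicate 1 its difference was 0.55. The b-ZIP transcription factor gene *atfA* (ASPWEDRAFT_37015) had 180, 250 and 217 RPKM in ′c *gfdB*, against 299, 308 and 353 RPKM in CBS141173. These values did not overlap, and the difference of −0.49 (SE 0.21, adjusted p = 0.111, edgeR) did not pass the test. The zinc finger transcription factor gene *msnA* (ASPWEDRAFT_101996) had a difference of −0.73 (adjusted p = 0.0894).

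*gfdA* (ASPWEDRAFT_104967), the glycerol 3-phosphate dehydrogenase gene that *A. wentii* itself carries, was among the more strongly expressed genes of the lists and overlapped between the strains. It had 1081, 585 and 892 RPKM in ′c *gfdB* (mean 853, SD 250.5), against 1160, 782 and 1056 RPKM in CBS141173 (mean 999.6, SD 195.3; n = 3 each). The difference was −0.18 (SE 0.28, adjusted p = 0.696, edgeR), −0.27 without replicate 1 and 0.02 without ′c *gfdB* replicate 2. Against the untreated cultures of the same strain the gene rose by 2.55 in ′c *gfdB* and by 3.33 in CBS141173 (adjusted p = 1.60e-06 and 5.49e-08, edgeR). Those responses share the NaCl libraries with the strain comparison. The 2 orthologues of the glycerol 3-phosphate phosphatase gene *gpp2*, ASPWEDRAFT_104044 and ASPWEDRAFT_673647, had differences of 0.32 and −0.22, neither past the test.

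None of the 3 genes of glycerol use tested was called. ASPWEDRAFT_47372, an orthologue of the glycerol kinase gene *gcnA*, had 170, 147.8 and 197 RPKM in ′c *gfdB*, against 120, 90.7 and 113 RPKM in CBS141173. The strains did not overlap. Its difference of 0.75 (SE 0.20, adjusted p = 0.0140, edgeR) stayed under 2-fold, also without replicate 1 (0.84, adjusted p = 0.0112). The gene of the FAD dependent glycerol 3-phosphate dehydrogenase (ASPWEDRAFT_24495), which oxidises glycerol 3-phosphate, had 216, 449 and 404 RPKM in ′c *gfdB* and 291, 271 and 303 RPKM in CBS141173. Its difference was 0.40 (adjusted p = 0.277), and 0.72 without replicate 1 (adjusted p = 0.0164, edgeR), again under 2-fold. The other *gcnA* orthologue, ASPWEDRAFT_748248, had the largest difference of this list, 1.32, which did not pass the test.

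NADP-coupled glycerol dehydrogenases form the largest list, with 15 co-orthologues of 3 *A. nidulans* genes, 12 of them tested. Of these, 2 were downregulated, beside 6.79% of all genes tested, and the others had differences between −0.92 and 0.35. ASPWEDRAFT_104176 had 19.3, 6.67 and 10.9 RPKM in ′c *gfdB*, against 34.8, 20.9 and 28.4 RPKM in CBS141173, and fell by 1.16 (SE 0.30, adjusted p = 0.00912, edgeR). ASPWEDRAFT_108056 had 14.5, 15.6 and 20 RPKM in ′c *gfdB*, against 57.7, 28.5 and 37.2 RPKM in CBS141173, and fell by 1.21 (SE 0.29, adjusted p = 0.00601, edgeR). Both sets of values were separate, and without replicate 1 the differences were −1.5 and −1.04, both past the test. ASPWEDRAFT_104176 dropped under 2-fold without CBS141173 replicate 1 (−0.98) or ′c *gfdB* replicate 2 (−0.88), and ASPWEDRAFT_108056 without CBS141173 replicate 1 (−0.90). NaCl raised both genes in each strain, ASPWEDRAFT_104176 by 1.97 in ′c *gfdB* and 3.20 in CBS141173, and ASPWEDRAFT_108056 by 1.90 and 2.50 (log2).

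Transport genes spread widely. The 12 co-orthologues of AN9168, a solute:proton symporter gene with a role in glycerol transport, gave 10 genes tested, none of which passed the test between the strains (median difference −0.37, range −1.58 to 0.23). Their most strongly expressed member, ASPWEDRAFT_534313, had 1513, 1610 and 2251 RPKM in ′c *gfdB*, against 2626, 2626 and 3244 RPKM in CBS141173, a difference of −0.57 (SE 0.30, adjusted p = 0.186, edgeR). ASPWEDRAFT_35932 had 4.29, 280 and 58.3 RPKM in ′c *gfdB* and 61.9, 382 and 261 RPKM in CBS141173. The libraries of a strain were further apart than the strains, and no difference could be shown (−0.93, SE 0.84). Against untreated cultures NaCl raised 5 of the 10 symporter genes and lowered 1 in ′c *gfdB*, and raised 8 and lowered 0 in CBS141173. Over all genes tested NaCl raised 19.4% and lowered 8.36% in ′c *gfdB*, and raised 19.5% and lowered 15.4% in CBS141173. None of the 10 symporter genes was called for a difference between these responses. None of the 3 glycerol 3-phosphate transporter genes tested was called.

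The 4 tested genes of trehalose synthesis and breakdown and the 3 proton pump genes (*pmaA* orthologues) had differences between −0.28 and 0.44, none past the test. ASPWEDRAFT_99274, the closest orthologue of the trehalose 6-phosphate synthase gene *tpsA*, had 428, 84.2 and 129 RPKM in ′c *gfdB* and 293, 169 and 169 RPKM in CBS141173. Its difference was 0.004, and −0.81 without replicate 1 (adjusted p = 0.0444, edgeR), under 2-fold.

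Of 48 oxidative stress genes, 44 were tested, of which 1 (2.27%) was upregulated and 3 (6.82%) downregulated (median 0.10). Over all genes tested the shares were 5.83% and 6.79%. ASPWEDRAFT_104112, a putative superoxide dismutase gene, had 8.42, 10.1 and 15.6 RPKM in ′c *gfdB*, against 6.60, 7.13 and 4.06 RPKM in CBS141173. It rose by 1.03 (SE 0.30, adjusted p = 0.0206, edgeR) and by 1.27 without replicate 1. Its call was lost without ′c *gfdB* replicate 3 (0.64) or CBS141173 replicate 3 (0.81), and its value was 0.93 on library totals without TMM scaling. The main superoxide dismutase gene by level, the *sodA* orthologue ASPWEDRAFT_23769, had 1012, 2031 and 2068 RPKM in ′c *gfdB* and 1797, 1530 and 1792 RPKM in CBS141173, a difference of 0.10 (adjusted p = 0.802).

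Calls among the catalase genes, whose products break down hydrogen peroxide, depended on replicate 1. With all libraries 0 of 6 were called. ASPWEDRAFT_53830, the closest orthologue of *catC*, had 197.7, 253 and 569 RPKM in ′c *gfdB* and 262, 120 and 190 RPKM in CBS141173, a difference of 0.96 (SE 0.41, adjusted p = 0.101, edgeR). ASPWEDRAFT_41216, the closest orthologue of *catB*, had 116, 303 and 527 RPKM in ′c *gfdB* and 311, 103 and 180 RPKM in CBS141173, a difference of 0.81 (SE 0.44, adjusted p = 0.200). The strains overlapped for both genes, with and without replicate 1. Without replicate 1 the differences were 1.29 and 1.24, with adjusted p = 0.0284 and 0.0235 (edgeR), and both were upregulated, beside 4.25% of all genes tested. The other catalase genes then had −0.44 (ASPWEDRAFT_48635), −1.28 (ASPWEDRAFT_66442), −0.19 (ASPWEDRAFT_116154) and 1.14 (ASPWEDRAFT_140699), none past the test.

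In the thioredoxin system, which reduces protein disulfides, 1 of 6 genes tested was called, as downregulated, beside 6.79% of all genes tested. ASPWEDRAFT_139887, a co-orthologue of *trxA*, had 13.9, 10.5 and 12.4 RPKM in ′c *gfdB*, against 41.8, 30.6 and 34.3 RPKM in CBS141173. The values were tight within each strain and well apart. The gene fell by 1.48 (SE 0.37, adjusted p = 0.00898, edgeR), and by 1.48 also without replicate 1. It was the member of the lists that stayed past the test in the fit to the 6 NaCl libraries alone (adjusted p = 0.0430). With the replicate number added to that fit as a block, its adjusted p was 0.0543 (edgeR). The most strongly expressed thioredoxin gene, ASPWEDRAFT_38834, had 2977, 2738 and 5080 RPKM in ′c *gfdB* and 3002, 1851 and 2596 RPKM in CBS141173 (0.63, adjusted p = 0.0924), and 0.83 without replicate 1 (adjusted p = 0.0316), under 2-fold. The thioredoxin reductase gene *trxR* (ASPWEDRAFT_166503) had a difference of 0.60 (adjusted p = 0.300).

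Of 12 glutathione genes tested, 2 were downregulated, beside 6.79% of all genes tested. Both were among the 6 co-orthologues of the glutathione peroxidase gene AN4905. ASPWEDRAFT_620702 had 2.45, 6.27 and 4.45 RPKM in ′c *gfdB*, against 9.73, 23.6 and 15 RPKM in CBS141173, and fell by 1.79 (SE 0.49, adjusted p = 0.0142, edgeR). ASPWEDRAFT_139874 had 9.45, 7.38 and 5.45 RPKM in ′c *gfdB*, against 12, 21.4 and 13.4 RPKM in CBS141173, and fell by 1.04 (SE 0.28, adjusted p = 0.0137, edgeR). The strains did not overlap for either. ASPWEDRAFT_620702 was no longer past the test without ′c *gfdB* replicate 1 (−1.45, adjusted p = 0.0559) or CBS141173 replicate 2 (−1.39), and ASPWEDRAFT_139874 without ′c *gfdB* replicate 3 (−0.91) or CBS141173 replicate 2 (−0.72). The glutathione reductase gene *glrA* (ASPWEDRAFT_39921) had a difference of 0.35 (adjusted p = 0.337). None of the 10 peroxiredoxin and 5 peroxidase genes was called.

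**Figure D4:**
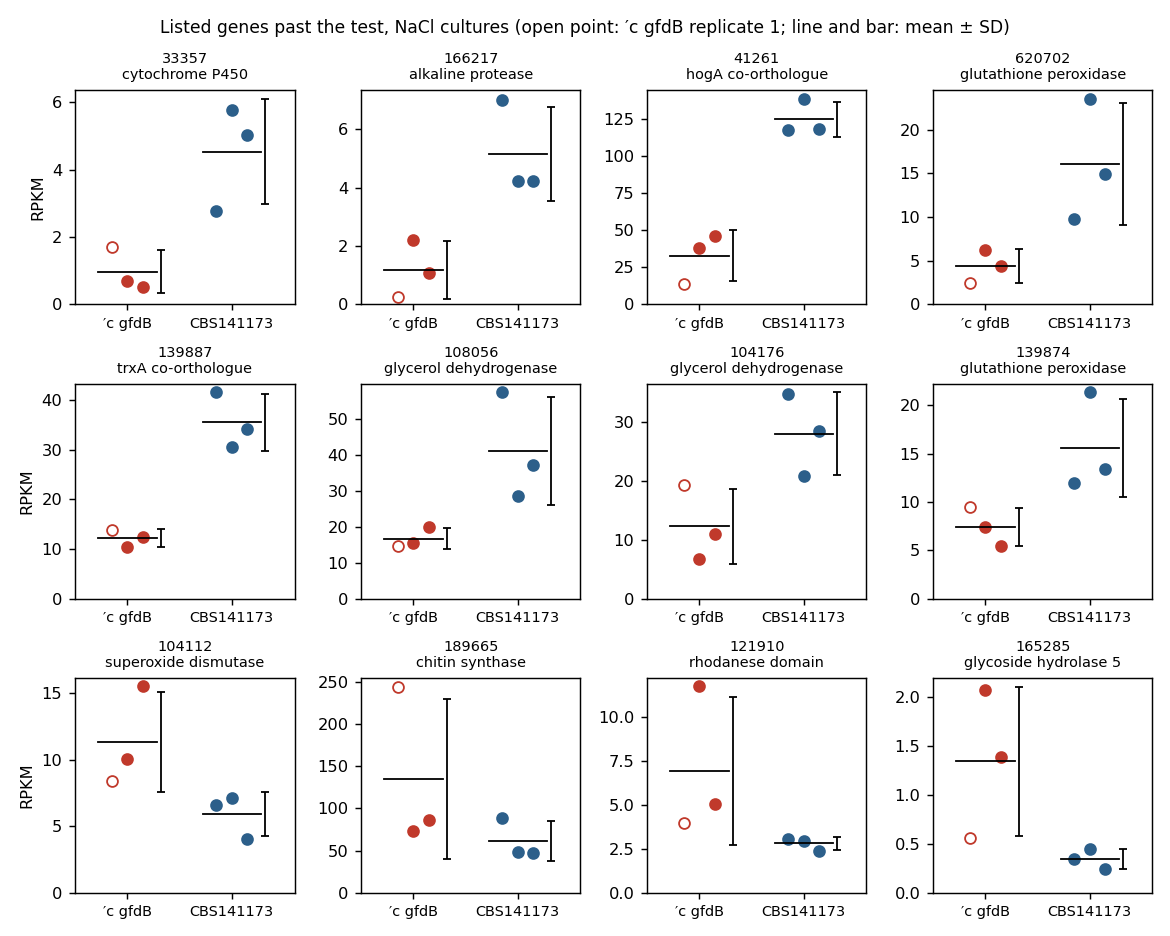
RPKM (y axes, from 0) of the 12 listed genes past the test in the NaCl cultures, ′c *gfdB* on the left and CBS141173 on the right of each panel, with 1 point per library, the open point for ′c *gfdB* replicate 1, and the mean with its SD as line and bar (n = 3 each). Titles give the ASPWEDRAFT number; the strains overlap for the chitin synthase gene (ASPWEDRAFT_189665) and for none of the other 11.

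Among the 11 RT-qPCR genes tested, 3 (27.3%) were upregulated and 2 (18.2%) downregulated, beside 5.83% and 6.79% of all genes tested. Without ′c *gfdB* replicate 1 it was 2 and 2, beside 4.25% and 7.05% of all genes tested. How the study chose these genes is not stated, so the higher shares are not read as a result about them. ASPWEDRAFT_33357, a cytochrome P450 gene, had 1.69, 0.687 and 0.527 RPKM in ′c *gfdB*, against 2.77, 5.77 and 5.03 RPKM in CBS141173, and fell by 2.21 (SE 0.41, adjusted p = 0.00100, edgeR). ASPWEDRAFT_166217, encoding alkaline protease 1, had 0.253, 2.22 and 1.06 RPKM in ′c *gfdB*, against 7.02, 4.23 and 4.24 RPKM in CBS141173, and fell by 2.03 (SE 0.57, adjusted p = 0.0153). Both were lower in each ′c *gfdB* library than in each CBS141173 library. Their values without replicate 1 were −2.75 and −1.51, both past the test, and ASPWEDRAFT_166217 lost its call without CBS141173 replicate 1 (−1.75, adjusted p = 0.0518).

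ASPWEDRAFT_165285, encoding a glycoside hydrolase of family 5, had 0.561, 2.07 and 1.39 RPKM in ′c *gfdB*, against 0.350, 0.451 and 0.243 RPKM in CBS141173, and rose by 2.01 (SE 0.47, adjusted p = 0.00550, edgeR). ASPWEDRAFT_121910, encoding a protein with a rhodanese domain, had 3.99, 11.7 and 5.05 RPKM in ′c *gfdB*, against 3.07, 2.97 and 2.38 RPKM in CBS141173, and rose by 1.38 (SE 0.36, adjusted p = 0.0112). Neither gene overlapped between the strains. Without replicate 1 they rose by 2.42 and 1.71, and ASPWEDRAFT_121910 lost its call without ′c *gfdB* replicate 2 (0.75) or CBS141173 replicate 3 (1.27). The chitin synthase gene ASPWEDRAFT_189665 had 244, 73.5 and 86.3 RPKM in ′c *gfdB* and 88.8, 48.6 and 47.5 RPKM in CBS141173. It was called at 1.12 (SE 0.34, adjusted p = 0.0221, edgeR) through replicate 1, without which its difference was 0.54 (adjusted p = 0.201). The call was lost also without CBS141173 replicate 2 (0.98) or 3 (0.96). Of the genes of mannitol metabolism, the mannitol-1-phosphate 5-dehydrogenase gene ASPWEDRAFT_117545 had 1561, 278 and 461 RPKM in ′c *gfdB* and 415, 714 and 631 RPKM in CBS141173. Replicate 1 of ′c *gfdB* was above the CBS141173 values and replicates 2 and 3 were not, and the difference was 0.36 (adjusted p = 0.550), or −0.50 without that library (adjusted p = 0.267).

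The strain difference under NaCl was set against the strain differences of the other conditions. Those rest on other libraries, but all come from the fit to 24 libraries with its shared estimate of the spread. Of the genes upregulated in ′c *gfdB* under NaCl, 20.9% were also upregulated in untreated, 22.1% in sorbitol-treated and 20.2% in NaCl + sorbitol-treated cultures, which is 24.6%, 16.5% and 33.9% of the genes upregulated there. Upregulated genes made up 4.94%, 7.82% and 3.48%, and downregulated genes 10.5%, 15.2% and 6.67%, of the genes tested in those conditions. Of the downregulated genes the shares were 36.7%, 44.0% and 40.0%, or 23.8%, 19.7% and 40.7% of those downregulated there. Without replicate 1 the shares of the NaCl genes were 29.4%, 39.9% and 29.8% (up) and 47.0%, 55.6% and 49.0% (down). Of the NaCl genes 9.27% of the upregulated and 21.9% of the downregulated were called in the same direction in all 4 conditions, and 404 and 299 genes were called under NaCl and in no other condition. The last counts depend on the threshold and do not show a difference between conditions.

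Whether the strain difference itself changed was tested by the interaction. Against the untreated cultures, it was higher under NaCl for 802 genes (7.23% of those tested) and lower for 352 (3.17%), and without ′c *gfdB* replicate 1 for 526 (4.70%) and 255 (2.28%). Against sorbitol the counts were 1216 (11.0%) and 518 (4.67%), and 357 (3.19%) and 159 (1.42%) without that library. The sorbitol counts also rest on the CBS141173 sorbitol cultures, whose replicates the study found less alike. Against NaCl + sorbitol 196 genes differed, 1.11% of those tested being higher and 0.658% lower, and 1.05% and 0.786% without that library. The NaCl + sorbitol count was the lowest of the 3 whichever NaCl library was left out. The sizes themselves moved with single libraries. Genes that differed from sorbitol numbered 1734, and 516 or 3033 without ′c *gfdB* replicate 1 or 2 and 721 or 1083 without CBS141173 replicate 2 or 3. The 196 became 776 or 359 without ′c *gfdB* replicate 2 or 3 and 84 or 74 without CBS141173 replicate 2 or 3. Of the 802 genes, 474 were downregulated in untreated ′c *gfdB* cultures, and 27 of these were upregulated under NaCl. The untreated difference is subtracted in the interaction, so a low untreated value raises it and these overlaps are partly fixed in advance.

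Some listed genes kept their strain difference in all conditions. The cytochrome P450 gene ASPWEDRAFT_33357 had −2.31 in untreated cultures, −2.64 under sorbitol, −2.21 under NaCl and −3.0 under NaCl + sorbitol. The glycoside hydrolase gene ASPWEDRAFT_165285 had 2.98, 3.66, 2.01 and 3.41, and the rhodanese gene ASPWEDRAFT_121910 1.33, 2.42, 1.38 and 1.52. These were past the test in each of the 4 conditions.

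Of the 106 listed genes 5 had a higher strain difference under NaCl than in untreated cultures and 0 a lower one, beside 7.23% and 3.17% of all genes tested, so the listed genes were not called more often than genes in general. Without replicate 1 it was 3 and 1, beside 4.70% and 2.28% of all genes. The putative glutathione transferase gene ASPWEDRAFT_53567 had 11.5, 7.17 and 7.91 RPKM in ′c *gfdB* and 7.98, 6.63 and 7.79 RPKM in CBS141173 under NaCl. In untreated cultures it had 10.1, 12.4 and 12.8 RPKM in ′c *gfdB*, against 95.9, 72.6 and 121 RPKM in CBS141173. Its level was alike in both strains under salt and far lower in ′c *gfdB* without it. The difference of the differences was 3.28 (SE 0.45, adjusted p = 0.000256, edgeR), and it kept its call when each of the NaCl libraries was left out. In CBS141173 the gene fell by 3.73 with NaCl, whereas in ′c *gfdB* its change was −0.46 (adjusted p = 0.247).

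The chitin synthase gene ASPWEDRAFT_189665 had 57.5, 102 and 91.9 RPKM in untreated ′c *gfdB*, against 184, 195.4 and 232 RPKM in untreated CBS141173. Its strain difference was −1.25 there and 1.12 under NaCl, 2.37 apart (SE 0.47, adjusted p = 0.00360, edgeR), and 1.78 apart without replicate 1. The peroxiredoxin gene ASPWEDRAFT_36552 had −2.24 in untreated cultures and −0.34 under NaCl, 1.89 apart (SE 0.48, adjusted p = 0.0154), and 1.55 apart without replicate 1 (adjusted p = 0.0498). The response regulator gene *srrA* (ASPWEDRAFT_202686), at −1.0 and 1.03, was 2.03 apart (SE 0.57, adjusted p = 0.0245, edgeR). This was lost without ′c *gfdB* replicate 1 (1.55, adjusted p = 0.0815), CBS141173 replicate 2 (1.76) or CBS141173 replicate 3 (1.76). The peroxidase gene ASPWEDRAFT_169781 had 0 to 0.215 RPKM in untreated ′c *gfdB*, against 0.203 to 2.06 RPKM in untreated CBS141173, and its 3.00 (adjusted p = 0.0356) was lost without ′c *gfdB* replicate 1 or any of the CBS141173 NaCl replicates (2.84 to 3.15).

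**Figure D5:**
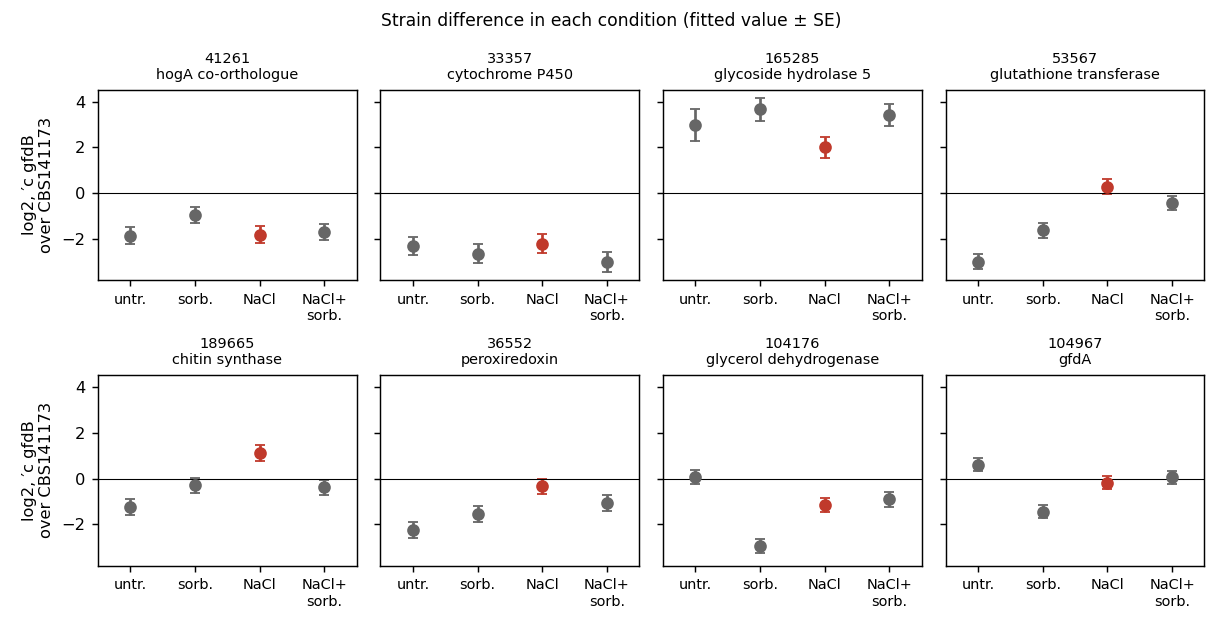
Strain difference (y axis, fitted log2 of ′c *gfdB* over CBS141173 ± SE, 3 libraries per strain and condition) of 8 listed genes in untreated, sorbitol, NaCl (red) and NaCl + sorbitol cultures (x axis). The upper left 3 genes keep their sign in the 4 conditions, while ASPWEDRAFT_53567 has −2.99 in untreated cultures and 0.29 under NaCl, and *gfdA* (ASPWEDRAFT_104967) has −1.45 under sorbitol and −0.18 under NaCl.

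The strain difference under NaCl was also read for genes that answer sorbitol in CBS141173, set from libraries other than the 6 NaCl libraries compared. Those libraries do enter the fit to 24 libraries, and with it the filter, the scaling and the shared estimate of spread. The CBS141173 sorbitol replicates among them were less alike, as the study reports. Of 799 genes raised over 4-fold by sorbitol, 34 (4.26%) were upregulated and 89 (11.1%) downregulated in ′c *gfdB* under NaCl, with a median difference of −0.23, against 5.83% and 6.79% and a median of 0.07 over all genes tested. Without replicate 1 the median was −0.24 with 35 up and 85 down, where 4.25% and 7.05% of all genes were called. Of 199 genes lowered over 4-fold by sorbitol, 28 (14.1%) were upregulated and 22 (11.1%) downregulated, with a median of 0.24, against the same 5.83% and 6.79% over all genes. Without replicate 1 it was 17 and 25 with a median of 0.11, again beside 4.25% and 7.05% over all genes. Whether these gene sets differ from other genes was not tested.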

How the data were processed

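RNA was sequenced by the authors as single reads from TruSeq libraries, mapped with HISAT2 2.1.0 to the FungiDB *A. wentii* genome and counted per gene with featureCounts. The authors deposited these read counts together with RPKM made with edgeR, which in each gene are the count over the library total times a constant of the gene. Strand and multiple matches are not stated, so near-identical co-orthologues could share reads. Doses are those of the study's methods, and the series record gives sorbitol and NaCl doses the other way round.

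Deposited counts of all 24 *A. wentii* libraries were fitted in 8 groups of 3 with edgeR 4.0.16 (R 4.3.3; TMM scaling, filterByExpr, glmQLFit, glmQLFTest), p-values were adjusted by Benjamini–Hochberg over all genes tested, and SE is the log2 value over the square root of F. The code was tested on simulated data. Levels are RPKM as deposited, and log2 CPM has a prior count of 2. Alternatives used limma 3.58.1 and DESeq2 1.42.0. P-values of the main fit judge a difference against the spread between replicates, estimated over the 8 groups together. The 48 *A. nidulans* value columns were not used. Gene positions were not used here, so the planned account of neighbouring genes was not made.

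The members and lists were chosen with earlier results of these data known. Genes named are *gfdA*, list members called, members needed to describe a list (some chosen after their values were seen), and outside the lists the 2 IDs each way with the largest change among those called with and without ′c *gfdB* NaCl replicate 1 and not overlapping.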

Additional observations from a re-analysis of the deposited data

Results flagged for a closer look

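Listed genes whose strain difference under NaCl differed from that in another condition by the interaction test are given here as log2 differences (′c *gfdB* over CBS141173 under NaCl, less the same elsewhere). Against untreated cultures these were 2.03 for *srrA* (ASPWEDRAFT_202686), 3.00 for the peroxidase gene ASPWEDRAFT_169781, 1.89 for the peroxiredoxin gene ASPWEDRAFT_36552, 3.28 for the glutathione transferase gene ASPWEDRAFT_53567 and 2.37 for the chitin synthase gene ASPWEDRAFT_189665.

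Against sorbitol, signalling and synthesis genes had 2.61 (*nikA* co-orthologue ASPWEDRAFT_184594), 1.92 (*srrA*), 1.71 (*ptpA*, ASPWEDRAFT_53169), 1.27 (*gfdA*), 1.45 (*orlA*, ASPWEDRAFT_173702) and 1.59 (*tpsA*, ASPWEDRAFT_99274). Antioxidative genes had 1.71 (superoxide dismutase ASPWEDRAFT_506345), 1.99 (catalase ASPWEDRAFT_53830), 3.68 (catalase ASPWEDRAFT_116154), 6.0 (*cpeA* orthologue ASPWEDRAFT_54185), −2.41 (glutathione peroxidase ASPWEDRAFT_620702), 1.91 (ASPWEDRAFT_53567) and 2.27 (glutathione transferase ASPWEDRAFT_22967). Glycerol genes had −1.72 (transporter ASPWEDRAFT_115153), −2.32 (symporter ASPWEDRAFT_134254), 1.20 and 2.78 (*gcnA* orthologues ASPWEDRAFT_47372 and ASPWEDRAFT_748248) and 1.78 (glycerol dehydrogenase ASPWEDRAFT_104176), and the chitin synthase gene had 1.43.

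Of the 106 listed genes 16 were above and 3 below sorbitol, where 11.0% and 4.67% of all genes tested were, and without ′c *gfdB* NaCl replicate 1 it was 8 and 0, where 3.19% and 1.42% of all genes were. Those 8 were ASPWEDRAFT_184594, ASPWEDRAFT_53169, ASPWEDRAFT_53830, ASPWEDRAFT_116154, ASPWEDRAFT_53567, ASPWEDRAFT_22967, ASPWEDRAFT_47372 and ASPWEDRAFT_104176. The differences of *gfdA*, *srrA*, *orlA*, *tpsA*, the *cpeA* orthologue and the chitin synthase gene did not pass the test without that library. Of the 5 above untreated 3 passed the test without that library. Against NaCl + sorbitol 0 of 106 passed, and 1 did without that library.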

How the results depend on the processing

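The count of genes depended most on the libraries fitted. Under NaCl, 647 upregulated genes became 53 and 753 downregulated became 141 with the 6 NaCl libraries alone, 240 up when ′c *gfdB* replicate 1 was also left out, and 30 and 124 with the replicate block in these 6. Leaving out 1 NaCl library gave 476 to 850 up and 596 to 849 down. The listed genes called (4 up, 8 down) became 0 and 1 with the 6 libraries, 0 and 1 with the block in these, 4 down without replicate 1 as well, and 14 up with limma voom. The gene called was ASPWEDRAFT_139887 with the 6 libraries and ASPWEDRAFT_620702 with the block in these (adjusted p = 0.0449, edgeR). Leave-one-out gave 1 to 6 up and 5 to 10 down. The 1154 genes whose strain difference departed from that in untreated cultures became 719 with the 4 groups compared, and 775 to 1560 when 1 NaCl library was left out. The same exclusion gave 516 to 3033 genes against sorbitol (1734 with all) and 74 to 776 against NaCl + sorbitol (196 with all). Fits of the 6 libraries without replicate 1 and with the block were added after the data were seen.

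Same-numbered NaCl libraries of the strains deviated from their group means with r = 0.201, 0.407 and 0.00860. Whether libraries of 1 number were handled together is not stated and was not tested. With the replicate block in the fit of 24 libraries, 581 genes were up and 713 down. Replicate 3 of ′c *gfdB* deviated most like replicate 1 of CBS141173 (r = 0.154), the others most like their own number.

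The difference of *gfdA* (ASPWEDRAFT_104967) ran from −0.32 to 0.017 on leaving out 1 NaCl library, the turned sign being that without ′c *gfdB* replicate 2. Of the alternative values computed for the genes named, 280 kept direction and call and 61 kept direction without passing the test or 2-fold. Of the 12 listed genes called, 4 (the *hogA*, *trxA*, cytochrome P450 and glycoside hydrolase genes) kept the call whichever NaCl library was left out. With ′c *gfdB* replicate 1 apart, 3 libraries a group limit what can be shown: SE of the listed genes called was 0.28 to 0.57.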
